A study of Mus musculus with 9 samples.

Results

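The genes described here are 9 markers of microglia, the resident macrophages of the brain, in RNA sequencing of the embryonic mouse midbrain: *Csf1r*, *Cx3cr1*, *P2ry12*, *C1qa*, *C1qb*, *C1qc*, *Tyrobp*, *Trem2* and *Aif1*. They were taken by symbol from the 51912 genes of the deposited table, and all 9 were found. Midbrains were dissected from C57Bl/6 embryos at E14.5 and 2 midbrains were pooled for each library. The study compared 3 genotypes with 3 libraries each: wild-type *Nkx2.9*+/+, heterozygous *Nkx2.9*LacZ/+, and homozygous *Nkx2.9*LacZ/LacZ. In the LacZ allele a LacZ reporter stands in for exon 1 of *Nkx2.9*, a homeobox gene, in the germline, so the allele is in every cell of the embryos that carry it and not only in microglia. Below, the genotypes are written LacZ/LacZ (libraries 1 to 3, numbered by column), LacZ/+ (4 to 6) and +/+ (7 to 9). The columns carry no replicate number. The methods give 1 to 2 litters for experiments in general, but not which litters the midbrains of a library came from. Libraries may thus share a litter, and p-values measure the spread between these libraries only.

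Microglia arise from yolk sac progenitors and enter the neural tube early in development, where they are a small minority of the cells. Their survival depends on the receptor Csf1r and its ligands Csf1 and Il34. Cx3cr1 receives the neuronal chemokine Cx3cl1, P2ry12 senses extracellular nucleotides, the C1q chains start the classical complement cascade, Trem2 recognises lipids and signals through the adaptor Tyrobp, and Aif1 (Iba1) is a cytoskeletal protein that is the usual stain for these cells. In RNA of a whole tissue, fewer microglia and less of a transcript per microglial cell cannot be told apart.

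The reads counted on genes ranged from 1692963 in library 7 to 5942192 in library 8, with a median of 4921748, and library 4 had 2584074. Values are normalized counts, the reads of a gene divided by a size factor for the library. At this scale 1 read was worth 0.702 in library 8, 1.63 in library 4 and 2.59 in library 7, so the values of low genes are coarsest in libraries 7 and 4. Genes with 2 reads outnumbered genes with 1 read in 9 of 9 libraries, by 1.33 to 1.72 times, so single reads may not all be independent molecules, and intervals from read numbers cover counting error only. *Nkx2-9* had 3 to 6 reads per library in LacZ/LacZ, 0 to 7 in LacZ/+ and 0 to 2 in +/+. As normalized counts, *Nkx2-9* was 2.58 to 5.49 in LacZ/LacZ, above libraries 8 and 9 (1.403 and 1.47), while library 7, at 0, cannot be placed, since 3 reads there would be 7.76. The targeted gene was thus not seen to be lower in the libraries labelled homozygous, and on so few reads it does not check the labels. The count also does not separate the replaced exon from the rest of the gene, so it is not settled whether the LacZ/LacZ and +/+ columns are labelled the right way round. Every direction given below between these genotypes, those of *Csf1* and *Plcg2* included, follows the labels and would turn if they were exchanged. The comparisons with LacZ/+ would then trade places, so that what is given for LacZ/LacZ against LacZ/+, as for *C1qb*, would be +/+ against LacZ/+, and what is given for LacZ/+ against +/+, as for *Csf1* and *Cd9*, would be LacZ/+ against LacZ/LacZ. *Xist*, which is transcribed in female cells, was 4607 to 5182 in LacZ/LacZ, 14.52 to 2929 in LacZ/+ and 47.1 to 4342 in +/+, so the share of female tissue was not balanced over the genotypes, which was covered only by a fit with *Xist* as a covariate. The midbrain label was checked with *Otx2*, a fore- and midbrain regulator at a mean of 275.3.

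The 9 markers were detected but low. Together they took 47 reads in library 7 and 91 to 169 reads in the others, or 24.5 (exact 95% interval 20.6 to 29.0) reads per 1000000 counted reads in library 1 to 35.2 (28.4 to 43.2) in library 4. Their summed normalized count was 103.9, 131.7 and 104.8 in LacZ/LacZ, 148.3, 111.9 and 112.6 in LacZ/+, and 121.5, 118.6 and 117.8 in +/+. The ranges of the 3 genotypes overlapped, and the means were 113.5 ± 15.8, 124.2 ± 20.8 and 119.3 ± 1.98 (SD, n = 3 each). Counted per kilobase of exon, the mean over the 9 libraries was highest for *C1qb* at 11.6 ± 5.69 (SD, n = 9), followed by *C1qa* at 8.23 ± 3.36, *C1qc* at 8.14 ± 4.96, *Tyrobp* at 7.90 ± 6.40 and *Csf1r* at 7.33 ± 1.22. *P2ry12* lay at 5.56 ± 1.58, *Cx3cr1* at 3.05 ± 1.23, *Aif1* at 2.59 ± 2.02 and *Trem2* at 0.528 ± 0.506 per kilobase. The 5 genes from *C1qb* to *Csf1r* did not differ from their neighbours beyond the spread over libraries, nor did *Cx3cr1* and *Aif1*, while the steps from *Csf1r* to *P2ry12*, from *P2ry12* to *Cx3cr1* and from *Aif1* to *Trem2* were larger than the SD of either gene. Even *C1qb* had a level per kilobase above only 35.8% of the 16993 genes tested, whose mean normalized count was 5 or more, and *Trem2* above 0.0590%. The exon length counts every annotated exon base of a gene, 4946 for *Trem2* and 667 for *Tyrobp*. The order, its steps and these percentages depend on that length. Before division by length the mean normalized count was 2.61 for *Trem2* and 3.97 for *Aif1*.

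**Figure D1:**
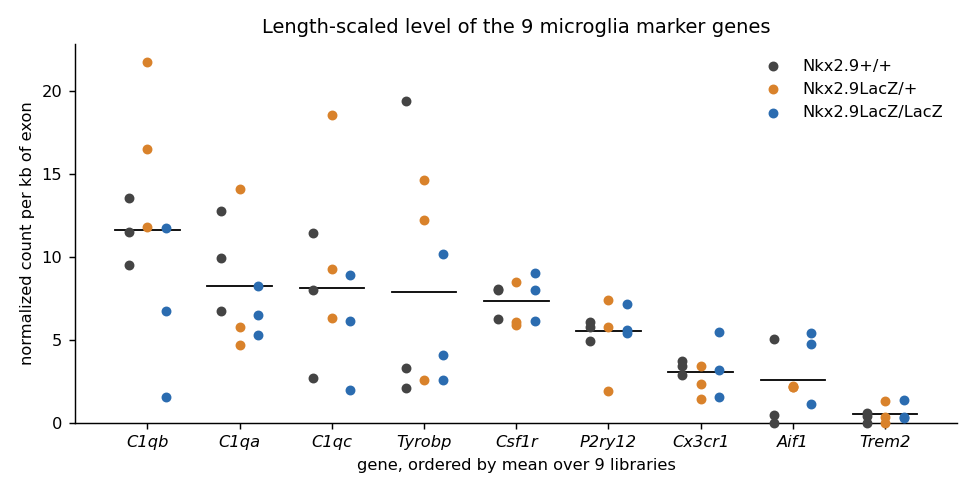
Normalized count per kilobase of exon (y axis) of the 9 microglia markers (x axis, ordered by the mean over 9 libraries), with 1 point per library coloured by genotype and a black line at the mean. The complement chain *C1qb* leads at 11.6, *Trem2* is last at 0.528, and the points of the 3 genotypes intermingle for most genes.

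Many microglial genes are controlled by the ETS factor that *Spi1* encodes, whose sites often hold the letters AGGAAG. They were searched on both strands of the RefSeq promoter windows of GRCm38.p6 (250 bases before to 50 after each start). They occurred in 4 of the 6 markers with a window (*C1qb*, *C1qc*, *P2ry12* and *Trem2*) and in 35.4% of all 32851 windows. A match of 6 letters describes the sequence and is no measured binding site. A site for each of these genes is shown, with the motif in capitals, so that those of the complement genes can be read beside those of 2 receptors. *C1qb* is read from chr4:136886235-136886264 on the + strand, 52 bases upstream of the start, *C1qc* from chr4:136893091-136893120 on the + strand, 194 bases upstream (a second site of *C1qc*, 157 bases upstream, is not shown), *P2ry12* from chr3:59263020-59263049 on the - strand, 52 bases upstream of a RefSeq start that lies beyond the end of the gene in the annotation used here, and *Trem2* from chr17:48346348-48346377 on the - strand, 41 bases upstream. All distances are from RefSeq starts. The RefSeq start of *C1qb* also lies beyond the annotated end of its gene, and that of *C1qc* lies inside its gene.
C1qb: cctgctgccctcAGGAAGtttcaggtcctg
C1qc: tgtgccaaaatgAGGAAGtgtctgccgtcc
P2ry12: aagctaacaagaAGGAAGttccccagtgac
Trem2: cgtgagggagggAGGAAGgaaaggaggctt

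*Csf1r* (ENSMUSG00000024621, chromosome 18, + strand), the receptor microglia need for survival, had the most reads of the 9, 404 over all libraries. Its normalized counts were 35.4, 52.1 and 46.4 in LacZ/LacZ, 48.9, 34.2 and 35.1 in LacZ/+, and 46.6, 46.3 and 36.1 in +/+. Every genotype held both high and low libraries and the ranges overlapped. Between LacZ/LacZ and +/+ the log2 fold change of *Csf1r* was 0.04 with a 95% confidence interval of -0.49 to 0.58 (limma, adjusted p = 1), which is a fold of 0.710 to 1.498. No other marker had so narrow an interval in this comparison. The gene overlaps *Hmgxb3* on the other strand, and since the strand setting of the counting is not stated, reads of the pair cannot be told apart.

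*Cx3cr1* (ENSMUSG00000052336, chr9:119901616-120069879, - strand) is the fractalkine receptor. It stood at 14.3, 24.7 and 6.87 in LacZ/LacZ, 6.52, 15.4 and 10.6 in LacZ/+, and 12.9, 16.8 and 15.5 in +/+. *P2ry12* (ENSMUSG00000036353, chr3:59216272-59262871, - strand), the purinergic receptor used to tell microglia from other macrophages, was 14.3, 18.3 and 13.7, then 4.89, 18.8 and 14.7, then 15.5, 14.7 and 12.5, in the same order of genotypes. Both receptors were lowest in library 4, where they rested on 4 and 3 reads, and all genotype ranges overlapped. Between LacZ/LacZ and +/+ the log2 fold change was -0.13 (-1.15 to 0.88) for *Cx3cr1* and 0.10 (-0.86 to 1.07) for *P2ry12*. *Cx3cr1* overlaps *Gm33858* and *P2ry12* lies within *Med12l*, each on the opposite strand, so the same limit on strand applies. Over the 9 libraries this pair had the highest Pearson r of the 36 marker pairs, 0.683, a description only, since all genes of a library share its pool and depth, while the lowest was -0.728, for *P2ry12* with *C1qa*, the median was -0.0544 and 16 of 36 were above 0.

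The 3 chains of C1q lie side by side on the - strand of chromosome 4, *C1qb* (ENSMUSG00000036905) at chr4:136880129-136886187, *C1qc* (ENSMUSG00000036896) at chr4:136889804-136893065 and *C1qa* (ENSMUSG00000036887) at chr4:136895917-136898803. *C1qb* was 12.8, 7.32 and 1.72 in LacZ/LacZ, 17.9, 12.8 and 23.7 in LacZ/+, and 10.3, 14.7 and 12.5 in +/+. The 3 heterozygous libraries were above the 3 homozygous ones, although the nearest pair, libraries 1 and 5, both round to 12.8, and the wild-type mean lay between. In mean, *C1qb* was 7.28 ± 5.54 in LacZ/LacZ and 18.1 ± 5.43 in LacZ/+ (SD, n = 3 each). This was a log2 fold change of -1.46 ± 0.55 (SE; 95% interval -2.62 to -0.30) with an unadjusted limma p of 0.0172 and a Benjamini-Hochberg adjusted p of 0.999. Two-sided exact permutation gave p = 0.1, the smallest that 3 libraries against 3 allow. Without library 3, where *C1qb* had 2 reads, the log2 fold change was -0.80 (limma, adjusted p = 1), and without library 6, where it had 29, it was -1.25 (adjusted p = 0.905). The unadjusted limma p was then 0.11 and 0.0685, each above 0.05. The lower *C1qb* of the libraries labelled LacZ/LacZ, which would be wild-type were the labels exchanged, thus failed the correction over all genes and was lost at the unadjusted p without either of 2 libraries.

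*C1qc* was 3.76, 11.9 and 17.2 in LacZ/LacZ, 35.9, 17.9 and 12.2 in LacZ/+, and 5.17, 15.4 and 22.1 in +/+. *C1qa* was 6.77, 5.49 and 8.59, then 14.7, 5.98 and 4.90, then 10.3, 7.02 and 13.2. In library 4 *C1qc* and *C1qa* each had their highest value, on 22 and 9 reads, while in library 3, where *C1qb* was lowest, *C1qc* was at 17.2. Between LacZ/LacZ and LacZ/+ the ranges of these chains overlapped, and *C1qc* had a log2 fold change of -1.02 (-2.27 to 0.24, limma, adjusted p = 0.999, exact permutation p = 0.2) and *C1qa* of -0.14 (-1.25 to 0.98, adjusted p = 0.999, exact p = 0.9). Differences among the 3 chains were not tested. Against +/+ the log2 fold changes of the homozygous libraries were -0.98 (-2.14 to 0.18) for *C1qb*, -0.36 (-1.61 to 0.90) for *C1qc* and -0.47 (-1.59 to 0.64) for *C1qa*. Without library 1 that of *C1qb* was -1.5, with an unadjusted p of 0.0194 and an adjusted p of 1 in limma. Without library 3 *C1qc* stood at -1.42 against LacZ/+, with an unadjusted p of 0.0468 and an adjusted p of 1. *C1qc* had the highest ratio of the 9 markers of variance over the libraries to that of counting alone, 4.68, against 3.39 for *C1qb*, 1.45 for *C1qa* and 0.864 for *P2ry12*. These ratios take each read as an independent molecule, which may not hold here, and so may be too high. They also include any spread between genotypes, and that of *C1qc* includes the high value of library 4.

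*Trem2* (ENSMUSG00000023992, chr17:48346401-48354147, + strand) had 25 reads in all, 0 of them in libraries 6 and 7. A count of 0 allows up to 3 reads, which is a normalized count of 2.45 in library 6 and 7.76 in library 7. The values of *Trem2* were 1.51, 1.83 and 6.87 in LacZ/LacZ, 6.52, 1.71 and 0 in LacZ/+, and 0, 2.11 and 2.94 in +/+, so each genotype reached from near 0 upward. Its partner *Tyrobp* (ENSMUSG00000030579, chr7:30413760-30417585, + strand) was 6.77, 2.74 and 1.72, then 9.78, 1.71 and 8.16, then 12.9, 1.403 and 2.21, on 2 to 10 reads per library. The highest *Tyrobp* value stood in library 7, where 5 reads made 12.9, and genotype differences of either gene were not detectable at this depth. For *Tyrobp* the interval of the log2 fold change of LacZ/LacZ over +/+ ran from -1.90 to 1.61 around -0.15, and for *Trem2* from -0.98 to 2.44 around 0.73.

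*Aif1* (ENSMUSG00000024397, chr17:35170991-35176068, - strand) had 35 reads in all. It was 8.28, 7.32 and 1.72 in LacZ/LacZ, 3.26, 3.42 and 3.26 in LacZ/+, and 7.76, 0 and 0.736 in +/+. The wild-type group held both the 0 and a value near the highest, the latter from 3 reads in the shallow library 7. With all libraries the log2 fold change of LacZ/LacZ over +/+ was 1.26 (-0.46 to 2.99, limma, adjusted p = 0.963, exact permutation p = 0.3). Without library 7 it was 2.17 (unadjusted p = 0.0101, limma adjusted p = 1), and that of LacZ/+ moved from 0.80 to 1.71 (unadjusted p = 0.0353, limma adjusted p = 0.988). *Aif1* and *Trem2* lay under the minimum mean of 5 that the other 7 markers passed, and were taken from a fit without it.

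**Figure D2:**
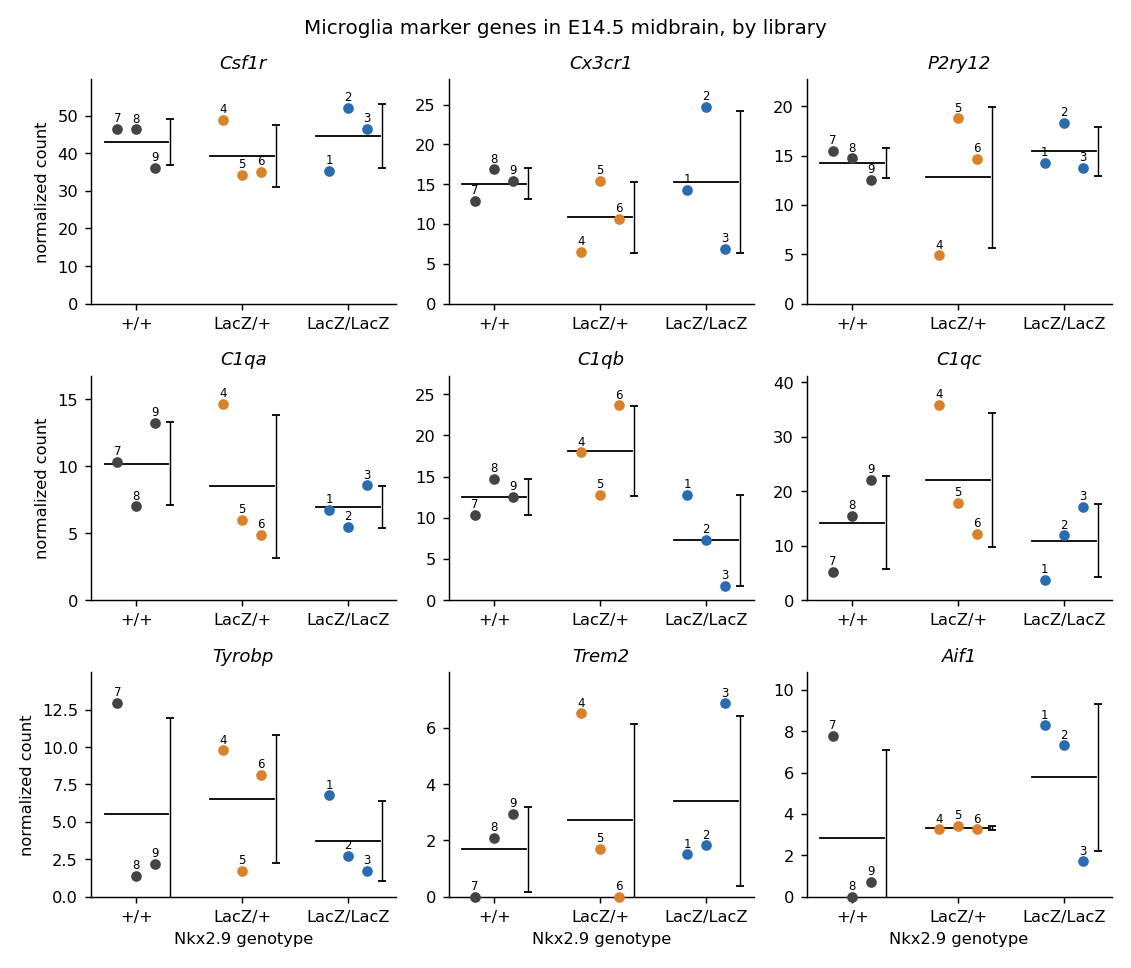
Normalized count (y axis) of each marker by *Nkx2.9* genotype (x axis), with 1 point per library marked by its number, a black line at the mean of 3 and a bar of 1 SD cut at 0. *C1qb* is the 1 gene with non-overlapping libraries in a comparison, 1.72 to 12.8 in LacZ/LacZ against 12.8 to 23.7 in LacZ/+.

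The 3 comparisons share libraries and are given side by side. Of the 9 markers, 0 had an unadjusted limma p under 0.05 in LacZ/LacZ against +/+, where 2.60% of the genes tested did. In LacZ/+ against +/+ the count was 0 beside 2.78% of genes, and in LacZ/LacZ against LacZ/+ it was 1, *C1qb*, beside 2.64%. By direction, 0 markers were higher, beside 1.38%, 1.31% and 1.49% of genes in the same 3 comparisons, and 0, 0 and 1 were lower, beside 1.22%, 1.48% and 1.15%. The log2 fold changes ran from -0.98 for *C1qb* to 1.26 for *Aif1* in the first comparison, from -0.51 for *Cx3cr1* to 0.80 for *Aif1* in the second, and from -1.46 for *C1qb* to 0.48 for *Trem2* in the third. Libraries did not overlap for 0, 0 and 1 of the markers, beside 9.52%, 6.91% and 8.71% of the genes tested. After adjustment 0 markers passed in limma, in edgeR and in DESeq2, and by unadjusted p edgeR and DESeq2 each gave the same counts of 0, 0 and 1. The median log2 fold change of the 9 was -0.13, 0.24 and 0.18 in the 3 comparisons, beside 0.01, -0.01 and 0.02 for all genes tested, and over the 7 markers above the minimum it was -0.15, -0.13 and -0.14. These counts lay near the background, and in the last 2 comparisons the sign of the median depended on whether the 2 sparsest genes were included. Differences of the size that the intervals above still hold could have been missed.

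**Figure D3:**
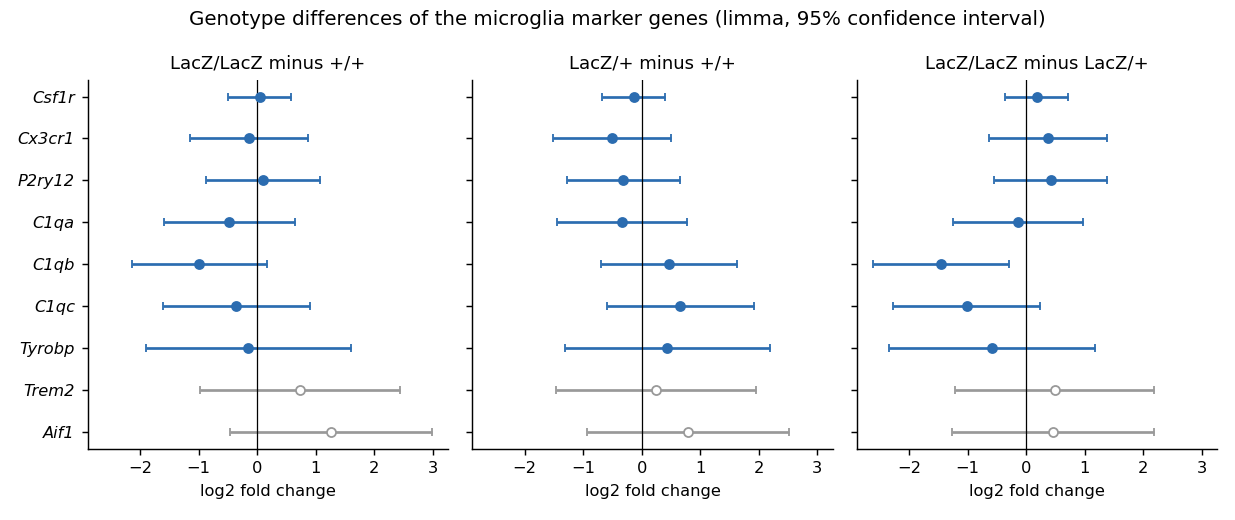
Log2 fold change with its 95% confidence interval (x axis) of the 9 markers (y axis) in the 3 comparisons of genotypes, with open grey symbols for the 2 genes under the minimum count. The interval excludes 0 for *C1qb* alone, at -1.46 between LacZ/LacZ and LacZ/+, and *Csf1r* has the narrowest intervals.

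Among 17 ligands and signalling partners of the markers, 11 passed the minimum count. *Csf1*, the ligand of Csf1r (ENSMUSG00000014599, chr3:107741048-107760469, - strand), was 18.8, 30.2 and 32.6 in LacZ/LacZ, 16.3, 24.8 and 29.4 in LacZ/+, and 12.9, 12.6 and 11.8 in +/+. Each of the 6 libraries labelled with a LacZ allele was above the 3 labelled wild-type. The log2 fold change of *Csf1* over +/+ was 1.03 (0.29 to 1.77, unadjusted limma p = 0.00919, adjusted p = 1, exact permutation p = 0.1) in LacZ/LacZ and 0.83 (0.09 to 1.57, unadjusted p = 0.0306, adjusted p = 1) in LacZ/+. Leaving out each library in turn gave unadjusted limma p-values of 0.00482 to 0.0457 for the homozygous difference, while that of the heterozygous libraries reached 0.124 and was above 0.05 without library 5, 6, 8 or 9, with log2 fold changes of 0.77, 0.65, 0.84 and 0.79. The estimates for *Csf1r* itself were 0.04 and -0.13. The other Csf1r ligand *Il34* had 29 reads in all and values of 0 to 8.15, and *Cx3cl1*, the ligand of Cx3cr1, was 115.3 ± 11.6, 126.4 ± 19.0 and 121.5 ± 16.0 (SD, n = 3 each) in LacZ/LacZ, LacZ/+ and +/+.

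Downstream of Trem2 and Tyrobp, the phospholipase gene *Plcg2* was 5.27, 0.915 and 2.58 in LacZ/LacZ, 16.3, 3.42 and 4.90 in LacZ/+, and 18.1, 10.5 and 8.83 in +/+. The homozygous libraries were all below the wild-type ones, with a log2 fold change by the labels of -1.89 (-3.30 to -0.47, unadjusted limma p = 0.0122, adjusted p = 1, exact permutation p = 0.1). The gene had 1 to 15 reads per library, and without library 2 the log2 fold change was -1.45 with an unadjusted p of 0.0562. *Inpp5d*, a phosphatase that restrains this pathway, did not overlap either, at 12.04, 12.8 and 12.02 against 22.8, 14.516 and 21.2 in LacZ/+ and 20.7, 21.1 and 16.2 in +/+, with a log2 fold change of -0.60 (-1.34 to 0.13, limma adjusted p = 1, exact permutation p = 0.1) over +/+ and the same estimate over LacZ/+. The kinase gene *Syk* overlapped between all genotypes, at 12.4 ± 2.99, 8.88 ± 2.79 and 12.6 ± 6.97. In this list, 1 gene of 11 was higher and 1 lower in LacZ/LacZ than in +/+ by unadjusted p, beside 1.38% and 1.22% of all genes, and 0 after adjustment. Libraries did not overlap for 3 of the 11, beside 9.52% of all genes.

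**Figure D4:**
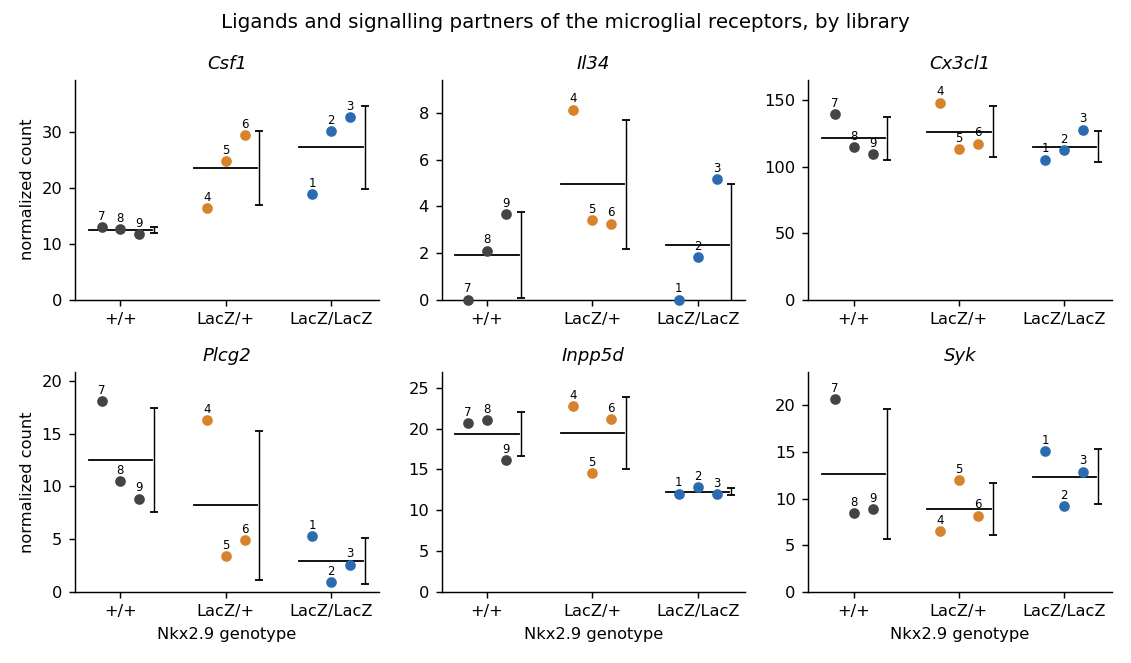
Normalized count (y axis) of 6 ligands and signalling genes by *Nkx2.9* genotype (x axis), with 1 point per library marked by its number, a line at the mean and a bar of 1 SD cut at 0. *Csf1* lies between 11.8 and 12.9 in wild-type libraries and between 16.3 and 32.6 in the others, and *Plcg2* is at most 5.27 in LacZ/LacZ and at least 8.83 in +/+.

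A wider set of 55 genes of homeostatic microglia, phagocytes, border-associated macrophages, pan-myeloid cells and macrophage regulators held 25 genes above the minimum. By unadjusted limma p, 1 was lower in LacZ/LacZ than in +/+, 1 was higher in LacZ/+ than in +/+, and 0 differed between LacZ/LacZ and LacZ/+, beside 2.60%, 2.78% and 2.64% of all genes tested, and 0 passed the adjustment. Libraries did not overlap for 7, 1 and 3 of the 25 genes in these comparisons, beside 9.52%, 6.91% and 8.71% of all genes. The lower gene was *Cebpa*, a myeloid transcription factor, at 0, 6.40 and 0 against 15.5, 5.61 and 5.89, where the ranges overlapped (log2 fold change -2.22, unadjusted p = 0.0209, adjusted p = 1), and the call was lost without library 1, 3 or 7 (-1.74, -1.74 and -1.79). The higher gene was the tetraspanin *Cd9*, at 44.0, 47.0 and 51.4 against 18.1, 41.4 and 33.9 (0.67, unadjusted p = 0.0342, limma adjusted p = 1), and this call was lost without library 5, 6 or 7 (0.67, 0.61 and 0.33).

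Several defining genes of the lineage were near the limit of detection. *Spi1* had 18 reads and *Itgam* 18 reads over all 9 libraries, and *Tmem119*, a marker of mature microglia, had 15 reads and stood at 0 in 5 libraries. Genes that neural cells also use led their lists instead, *Coro1a* at a mean of 170.2 and *Sall1* at 222.6. Of 11 monocyte, granulocyte and mast cell genes, 0 passed the minimum, 3 were at 0 in every library, and their sum was 2.26 to 8.15 per library. Of 9 genes of border-associated macrophages, which share *Csf1r*, *Cx3cr1* and the C1q genes with microglia, 2 passed. Their sum was 42.1 to 63.1 in LacZ/LacZ, 57.9 to 70.0 in LacZ/+ and 47.8 to 84.9 in +/+, led by *Stab1* (21 to 91 reads per library), which endothelium expresses too, while *Mrc1* had 43 reads in all. The part of border macrophages in the marker values was not tested.

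**Figure D5:**
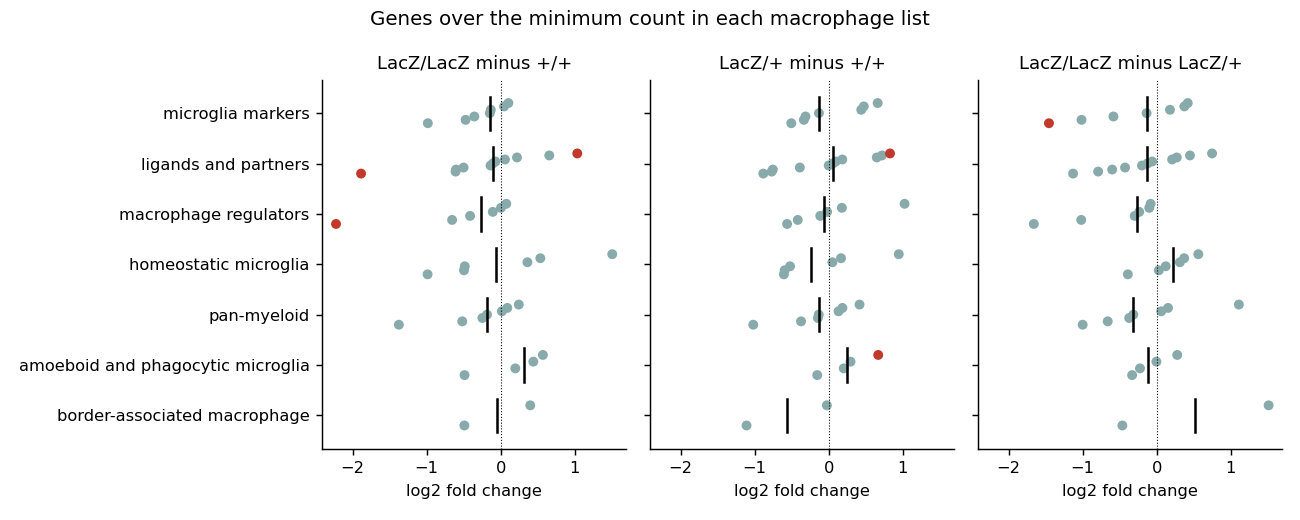
Log2 fold change (x axis) of each gene over the minimum count in the marker list and 6 lists of related genes (y axis) for the 3 comparisons, with red points for an unadjusted p under 0.05 and a black bar at the list's median. Of the 7 markers only *C1qb* is red, at -1.46, and the medians of the markers lie at -0.15, -0.13 and -0.14.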

How the data were processed

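The authors isolated RNA, depleted ribosomal RNA, sequenced 100-bp paired ends, aligned with HISAT2 to mm10 and counted with featureCounts, per their methods. The sample labels instead name a trizol isolation and an mRNA protocol, and the series title speaks of cortex. Versions, annotation release and strand setting are not given in the sources used here. The deposited signal is a normalized count, the read count divided by a DESeq2 size factor. The authors' 3 deposited tables of DESeq2 comparisons (log2 fold change, error, p) were not used. Dividing by each library's step gave whole reads for 100% of 210686 values above 0 (tolerance 0.01). Gene names, positions and exon lengths came from a GRCm38 annotation.

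limma 3.58.1 (R 4.3.3, lmFit, eBayes with trend, two-sided) was run on log2(normalized count + 1) with 9 libraries in 1 fit and p-values were adjusted by Benjamini-Hochberg across 16993 genes, those with a mean of 5 or more. Fold changes are on this scale, which understates low genes. Markers under the minimum came from a fit without it. Alternatives included edgeR 4.0.16 and DESeq2 1.42.0 on the recovered reads, and the fits were tested on simulated data. Exact permutation tests compared 3 libraries with 3.

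Named genes were the 9 markers, genes of written lists with an unadjusted p under 0.05 or among the 4 highest of a list, and the 10 genes most like the marker mean. *Spi1*, *Itgam*, *Tmem119*, *Il34*, *Syk*, *Inpp5d*, *Mrc1*, *Nkx2-9* and *Xist* were named outside this rule after their values were seen. Markers and lists were chosen with earlier results of these data known.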

Additional observations from a re-analysis of the deposited data

How the results depend on the processing

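Of 567 values recomputed for the 27 marker differences (9 genes, 3 comparisons), 559 kept their side of an unadjusted p of 0.05, and of 210 for 10 other named differences 177 did so with the same direction. Leaving out 1 library in turn gave 0 to 1 called markers in each of the 3 comparisons, and medians of -0.134 to 0.177 (LacZ/LacZ against +/+), -0.0717 to 0.25 (LacZ/+ against +/+) and -0.24 to 0.178 (LacZ/LacZ against LacZ/+). After seeing the data, 2 settings were added. Without libraries 4 and 7, the shallowest, the medians of the first and second comparison were 0.106 and -0.2338, with 1 called marker in each, *Aif1*. With *Xist* as a covariate the second was -0.0826, and with edgeR the first was 0.0753. For the 55 wider genes, the first comparison had 2 calls with a pseudocount of 5, no minimum, no trend, *Xist* or without libraries 4 and 7, 3 with only the 2 genotypes compared, and 0 with a minimum of 20 or edgeR, against 1. The second had 0 with only 2 genotypes, edgeR, DESeq2 or *Xist*, and 2 without libraries 4 and 7, against 1. The third had 1 without libraries 4 and 7, against 0. The cause was not tested. Over all genes, dropping the minimum raised the calls by unadjusted p in the first comparison from 441 to 1135 of 31636 genes, and in the second from 473 to 1137. No paired analysis was possible because the columns carry no replicate number. Depth limits *Aif1*, *Trem2* and *Tyrobp* most, with 25 to 42 reads each.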

Other observations

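Cells around the microglia were also measured. *Foxc1*, a regulator of the meninges, was 12.1 ± 1.33 in LacZ/LacZ, 21.5 ± 2.84 in LacZ/+ and 24.9 ± 1.20 in +/+ (SD, n = 3 each). Its log2 fold change of libraries labelled homozygous over those labelled wild-type was -0.99 (unadjusted limma p = 0.00677, adjusted p = 1, exact permutation p = 0.1). *Col1a1*, the collagen chain of the same fibroblasts, was 53.2 ± 10.99, 41.7 ± 9.38 and 71.4 ± 14.1, with a log2 fold change of -0.77 (unadjusted p = 0.00766, adjusted p = 1) for LacZ/+ over +/+. Of 5 meningeal genes over the minimum, 1 differed by unadjusted p in each comparison, beside 2.60%, 2.78% and 2.64% of all genes tested. In LacZ/LacZ against LacZ/+ it was *Foxc1* at -0.78, a call lost without library 1, 4 or 5 (-0.69, -0.69 and -0.78) and in 5 of 12 other settings, while 3 of the 5 genes were above 0 and their median was 0.21. Of 10 endothelial and pericyte genes, 8 erythroid genes, 6 neural progenitor genes and 5 neuronal genes over the minimum, 0 did in any comparison, and 0 passed the adjustment in limma. Of 8 midbrain genes, 0 were higher and 2 lower by unadjusted p in libraries labelled LacZ/LacZ than in those labelled +/+, beside 1.38% and 1.22% of all genes, while 5 of the 8 had a log2 fold change above 0 and the median was 0.03. The lower genes were *En1*, at 179.6 ± 19.6 against 273.9 ± 48.6, and *Pax7*, at 173.1 ± 49.2 against 264.3 ± 49.4 (unadjusted p = 0.0277 and 0.0119, adjusted p = 1 for both). The call of *En1* was lost without library 1, 7 or 9 (-0.50, -0.59 and -0.47) and that of *Pax7* without library 3 or 7 (-0.47 and -0.49). These directions, like that of *Foxc1*, and the genotypes named for *Col1a1* hold only if the LacZ/LacZ and +/+ columns are labelled the right way round, which *Nkx2-9* had too few reads to settle.

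The genes with the highest Pearson r over the 9 libraries to the mean of the markers, of 12489 with a mean of at least 20, were *Ube2z* (0.959), *Wwc1* (0.951), *Frs3* (0.95), *Rita1* (0.947), *Tpd52l1* (0.939), *Eif3l* (0.936), *Ergic3* (0.935), *Nop2* (0.934), *Gm4294* (0.919) and *Fance* (0.917). None is in the 55 wider genes, of which *Axl* came highest at 0.631, in place 1190. The markers themselves did not follow 1 course. The r of each marker with the mean of the other 8 ran from -0.769 for *P2ry12* to 0.163 for *C1qa*. Library 4, with few reads, had the highest marker mean, 0.382 on the centred log2 scale, and library 2 came next at 0.119. These are descriptions only, since all genes of a library share its pool and depth, and the listed genes are not shown to follow microglia.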
